A study of Homo sapiens with 15 samples.

Results

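GEMIN5-transfected HEK-293 cells were compared with untreated HEK-293 cells in the RNA of the cytoplasmic lysate. HEK-293 is an established human embryonic kidney cell line. The comparison took every library labelled as cytoplasmic input, 7 of the 15 libraries of the series, of which 4 came from untreated cells (Input control) and 3 from cells transfected with the plasmid pcDNA3Xpress-Gemin5 by Lipofectamine LTX and harvested 24 h later (Input GEMIN5). The other 8 libraries came from polysomes of both kinds of cells. All 7 lysates had been treated with cycloheximide, which holds ribosomes on the mRNA, and cleared of debris, and polyadenylated RNA was sequenced with a stranded kit. The control cells received neither plasmid nor lipid, so GEMIN5 and transfection cannot be told apart. The series calls its samples independent without describing separate cultures. A p-value here therefore covers only how these libraries scatter, which may be technical.

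GEMIN5 is the RNA-binding member of the SMN (survival of motor neuron) complex and recognises small nuclear RNAs, on which the complex loads rings of Sm proteins to build spliceosomal particles. A large share of GEMIN5 in the cytoplasm is not in that complex and also binds ribosomes and mRNAs. The series asked which mRNAs and splice forms differ when GEMIN5 is raised. In the lysate this was read in gene counts and in the percent spliced in (PSI). PSI is the share of reads that include an exon or an intron, or that use a given alternative splice site. Counts covered 21519 genes, of which 12197 had enough counts to be tested, and of 721551 listed splicing events 11930 had enough reads.

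Input control libraries held 13263269 to 17960319 counts and Input GEMIN5 libraries 17230133 to 18407933. Library 1 of Input GEMIN5 stood apart from the other two. Its chi-square per degree of freedom over genes was 31.5 against library 2 and 23.4 against library 3, while libraries 2 and 3 gave 5.63 and pairs of Input control libraries 3.35 to 6.31. Genes that mark HEK-293 cells, such as the neurofilament genes, were present in all 7 libraries, with 10 to 12 of 12 having counts. Liver genes summed to 71 and 89 counts in Input control 1 and 2, to 2278 and 1940 in Input control 3 and 4, and to 57 to 79 in Input GEMIN5. Albumin (ALB), their defining mRNA, had 588 and 414 counts in those 2 control libraries and 0 in the other 5. Liver genes are therefore left out of the results, and counts of changed genes are also given without Input control 3 and 4.

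GEMIN5 itself (ENSG00000082516, chr5:154887411-154938211, GRCh38, minus strand) had 161, 258, 182 and 219 counts in Input control and 11848, 9417 and 9500 in Input GEMIN5. All 3 GEMIN5 libraries thus lay far above all 4 controls. GEMIN5 rose by 6.68 on the log2 scale (SE 0.21) with trimmed-mean (TMM) scaling and by 5.38 (SE 0.22) with library size scaling (edgeR adjusted p = 9.70e-14 and 2.64e-11). The deposited events also gave the reads that cross each of the 27 splice junctions of the GEMIN5 mRNA. The first junction at its 5′ end and the last ones at its 3′ end are shown, since the transfected cells differed between them. Each line holds the last 20 bases of the upstream exon in lower case and the first 20 bases of the downstream exon in capitals, from GENCODE transcripts.
GEMIN5 junction 1, across the intron chr5:154937186-154937967: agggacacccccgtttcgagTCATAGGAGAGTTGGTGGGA
GEMIN5 junction 26, across the intron chr5:154889418-154891240: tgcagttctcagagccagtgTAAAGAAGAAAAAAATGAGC
GEMIN5 junction 27, across the intron chr5:154888378-154889320: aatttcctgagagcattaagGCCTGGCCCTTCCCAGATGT

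All 3 of these junctions lie in the coding sequence, and a spliced cellular mRNA and a plasmid that carries the joined coding sequence would give the same letters, so the 2 sources cannot be told apart. Junction 26 was crossed by 5, 19, 11 and 15 spliced reads in Input control and by 2174, 2091 and 2055 in Input GEMIN5. Junction 1 was crossed by 1, 4 and 1 reads in Input control 1 to 3, had no value in Input control 4, and was crossed by 6, 18 and 13 in Input GEMIN5. At junction 26 all GEMIN5 libraries lay far above all controls, and at junction 1 they lay a few reads above the 3 controls with a value. Junctions 1 to 9 together held 10.0 to 24.2 spliced reads in Input control and 137, 54.6 and 56.5 in Input GEMIN5, and junctions 19 to 27 held 42.5 to 69.7 and 5556, 5310 and 5186. The ratio of the latter to the former was 2.88 to 4.25 in Input control and 40.6, 97.2 and 91.7 in Input GEMIN5. Polysome GEMIN5 libraries, which carry the same plasmid, gave ratios of 2.69 to 6.0, and Polysome control libraries 5.80 to 17.5. The 3 Input GEMIN5 libraries thus had the highest ratios of all 15.

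**Figure D1:**
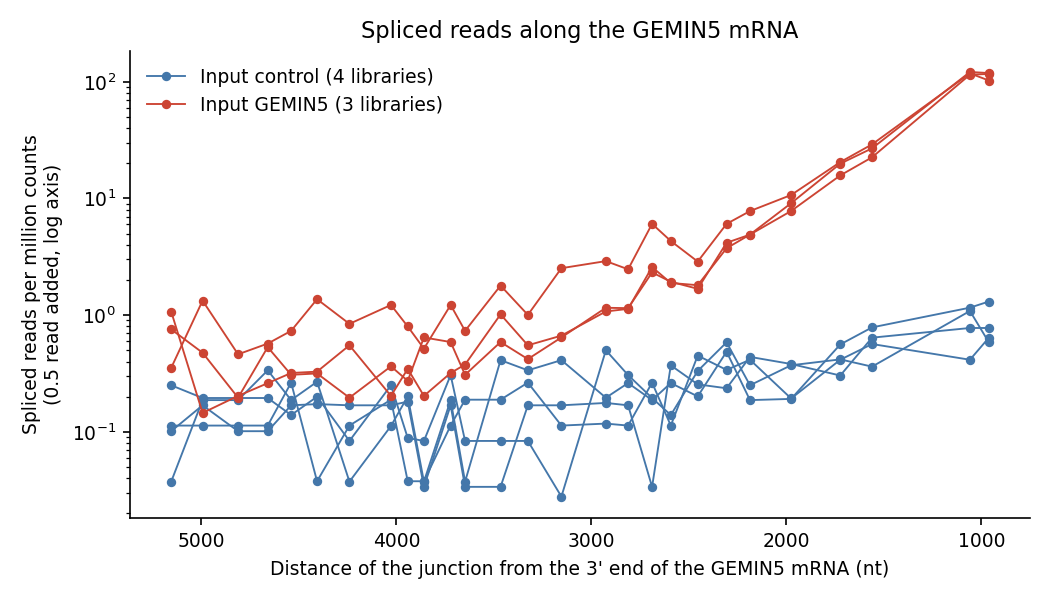
Spliced reads per 1000000 counts of the library (0.5 read added, log axis) at each of the 27 junctions of the GEMIN5 mRNA, by distance of the junction from its 3′ end in nucleotides. Lines are single Input libraries, blue for 4 control and red for 3 GEMIN5 libraries. The red lines run close to the blue ones at the 5′ end on the left and far above them at junctions 26 and 27 on the right, with 2055 to 2174 reads at junction 26 against 5 to 19.

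The lysate comparison asked which mRNAs went up or down in the transfected cells. The sign of many differences depended on how libraries were scaled, and a few abundant genes took a larger share of the Input GEMIN5 libraries. Ribosomal protein mRNAs held 35.4 ± 0.524% of counts in Input control (SD, n = 4) and 58.7 ± 2.66% in Input GEMIN5 (SD, n = 3). The 10 genes with most counts held 10.8 ± 0.196% and 17.2 ± 1.42%. TMM factors, which set the typical gene to no change, were 0.971 to 1.03 in Input control and 0.488, 0.354 and 0.374 in Input GEMIN5. The median gene lay at −0.01 on the log2 scale with TMM scaling and at −1.29 with library size scaling.

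With TMM scaling 3309 genes were higher and 2974 lower in Input GEMIN5 (27.1% and 24.4% of genes tested, edgeR quasi-likelihood test, adjusted p under 0.05, 51.5% called in all). With library size scaling the split was 606 higher and 9269 lower (4.97% and 76.0%, 81.0% in all). Scaling by the library size without ribosomal protein genes gave 1525 higher and 6353 lower. All 606 genes that were higher by library size were also higher by TMM, and all 2974 genes that were lower by TMM were also lower by library size. Another 1207 genes (9.9%) were called higher by TMM and lower by library size, and 826 passed under neither. A gene was taken to have risen or fallen where it was called in that direction under both scalings. Without Input control 3 and 4 there were 467 risen and 2488 fallen genes. Without Input GEMIN5 2 TMM scaling gave 2922 higher and 2389 lower genes, and 2108 and 3674 when genes were also chosen anew for testing, so the balance turned with the genes tested. Genes were not chosen anew without the other libraries.

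Ribosomal protein mRNAs rose, beside 4.97% of all genes. Of small subunit genes 28 of 31 tested rose and none fell, with a median log2 difference of 2.19 by TMM and 0.87 by library size. Of large subunit genes 34 of 45 rose and none fell, with medians of 2.06 and 0.74. RPS29, a zinc-binding protein of the small subunit (chr14:49570984-49599164), had 1463, 1499, 1546 and 1459 CPM (counts per 1000000 counts of the library) in Input control and 6191, 6004 and 6225 in Input GEMIN5. All 3 GEMIN5 libraries lay close together and above every control library. RPS29 rose by 3.35 (SE 0.22) by TMM and 2.04 (SE 0.15) by library size, RPS21 by 3.11 and 1.79, and RPL39 by 2.83 and 1.51.

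Factors that build and run ribosomes are read against all genes, of which 24.4% fell and 4.97% rose. Of 40 ribosome biogenesis factors 21 fell and 2 rose, with medians of −0.54 and −1.82. LTV1, an export factor of the small subunit, had 214, 367, 215 and 221 counts in Input control and 34, 17 and 13 in Input GEMIN5, and fell by 2.56 (SE 0.32) by TMM. NOP10, a small protein of the pseudouridylation particles, was 1 of the 2 that rose, by 1.89 and 0.57. Of 36 translation initiation factors 10 fell, none rose and 8 were called in opposite directions, as were 9.9% of all genes. The cap-binding protein EIF4E fell, with log2 differences of −1.78 (SE 0.17) and −3.04 (SE 0.23). Among elongation factors and other mRNAs with a terminal oligopyrimidine tract 8 of 14 fell and 2 rose. TMA7, a short ribosome-associated protein, rose by 2.21 and 0.91, while HNRNPA1, an RNA-packaging protein of the same list, fell (−1.68 and −2.96).

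Nuclear genes of the respiratory chain rose more often than they fell, while of all genes 4.97% rose and 24.4% fell. Of 30 nuclear complex I genes 16 rose and 3 fell, with medians of 1.61 by TMM and 0.30 by library size, and of 35 genes of complexes II to V 17 rose and 1 fell, with medians of 1.57 and 0.29. NDUFB1, a small accessory subunit of complex I, had 214, 220, 218 and 201 CPM in Input control and 638, 518 and 485 in Input GEMIN5, and rose by 2.65 (SE 0.19) and 1.36 (SE 0.15). UQCRQ of complex III rose by 2.62 and 1.31. The mRNAs that mitochondria make themselves held 4.22 ± 0.388% of counts in Input control and 1.77 ± 0.310% in Input GEMIN5. None of the 13 rose, which is near the 4.97% of all genes, and 2 fell, beside 24.4% of all genes. Their medians were −0.14 by TMM and −1.42 by library size, beside −0.01 and −1.29 for the median gene. MT-ATP8, an ATP synthase subunit, had 5240, 6605, 5424 and 4371 counts in Input control and 651, 213 and 345 in Input GEMIN5 and fell (−2.79, SE 0.30, and −4.02, SE 0.36). MT-ND6 was the other to fall (−0.86 and −2.11), and MT-ND2 was 0.95 by TMM and −0.35 by library size. Mitochondrial ribosomal proteins were mixed, with 13 of 69 risen, 6 fallen and 17 called in opposite directions, the last beside 9.9% of all genes. MRPL33 rose by 2.37 and 1.07.

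Replication-dependent histone mRNAs, most of which lack a poly(A) tail and so are poorly seen by this kit, rose in 19 of 42 tested and fell in none. Of all genes 4.97% rose and 24.4% fell. These histone mRNAs had medians of 1.92 and 0.63. They held 0.0215 ± 0.00195% of counts in Input control and 0.0264 ± 0.00119% in Input GEMIN5. H4C2 had 5, 20, 16 and 15 counts in Input control and 60, 34 and 32 in Input GEMIN5, so these values are for few molecules.

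Subunits of a single machine could go different ways, with 24.4% of all genes fallen and 4.97% risen. No gene of the 20S proteasome core rose or fell under both scalings, and 9 of 12 were called in opposite directions, beside 9.9% of all genes. An example was PSMB6 with 1.02 by TMM and −0.29 by library size. In the 19S regulator 5 of 19 fell, near the share of all genes, among them the ATPase PSMC1 (−0.83 and −2.11), and SEM1, its smallest subunit, rose by 1.87 and 0.57. Of the 8 subunits of the chaperonin CCT, which folds actin and tubulin, 5 fell, with CCT6A at −1.23 and −2.48. RNA polymerase II gave 4 risen and 1 fallen of 12, with POLR2I, POLR2F and POLR2L, 3 of its smaller subunits, higher by 2.34, 2.26 and 2.23 by TMM and by 1.01, 0.94 and 0.92 by library size.

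Partners and substrates of GEMIN5 in the SMN complex were also mixed. Of the other 8 SMN complex genes tested none rose and 3 fell, beside 4.97% and 24.4% of all genes. SMN1 fell (−1.21, SE 0.16, and −2.47, SE 0.21), though its near-identical copy SMN2 makes the count uncertain. GEMIN6 was 1.46 (SE 0.15) by TMM and 0.16 (SE 0.12) by library size, so it passed by TMM only. GEMIN2 was 0.60 (SE 0.11) and −0.69 (SE 0.11), so its direction depends on the scaling. Of 12 genes for the Sm ring and its loading factors 4 rose and 2 fell, and SNRPG, SNRPD2 and SNRPE, all ring proteins, rose by 2.51, 2.10 and 2.04 by TMM and by 1.19, 0.78 and 0.75 by library size. SNRPG had 533, 532, 520 and 481 CPM in Input control and 1203, 1229 and 1114 in Input GEMIN5, with no overlap. Of 13 LSm proteins 4 rose and 2 fell, with the short LSM10 and LSM2 higher (1.98 and 1.82 by TMM, 0.65 and 0.50 by library size) and LSM14A, a component of cytoplasmic granules, lower (−1.87 and −3.13). Among 20 U1 and U2 particle proteins 7 fell and 1 rose. SNRNP70, the U1 70K protein, fell (−1.71 and −2.98), U2AF2, which binds the polypyrimidine tract before exons, fell (−1.37 and −2.65), and SF3B5 rose by 1.81 and 0.50.

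Most hnRNP and SR genes fell, beside 24.4% of all genes. Of 23 hnRNP genes 21 fell and none rose, with medians of −1.41 by TMM and −2.69 by library size. Of 12 SR and TRA2 genes, which promote exon inclusion, 9 fell and none rose, with medians of −0.80 and −2.07. Of 38 other splicing regulators 20 fell and 1 was called higher. HNRNPL (chr19:38836370-38852347), which binds CA-rich RNA, had 1668, 2587, 2122 and 1937 counts in Input control and 230, 75 and 89 in Input GEMIN5. Each GEMIN5 library lay far below every control, library 1 least so. HNRNPL fell, with −3.02 (SE 0.33) by TMM and −4.25 (SE 0.43) by library size, and RAVER1, a partner of the polypyrimidine tract binding protein, fell (−2.97 and −4.23). TRA2A, which binds exonic enhancers, fell as well (−1.88 and −3.13). RBFOX2 was the regulator called higher, and its spliced reads went the other way, as given below with genes of that kind.

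Genes of central metabolism and cell structure are read against the same shares, 24.4% fallen and 4.97% risen. Glycolytic enzymes fell in 8 of 15, with LDHA at −1.14 and −2.42, and endoplasmic reticulum chaperones fell in 11 of 21, with CANX at −1.61 and −2.88. None of either list rose. Cytoskeletal actin and tubulin genes fell in 12 of 25 and rose in none. ACTB, cytoplasmic β-actin (chr7:5526409-5563902), had 1989, 2214, 1929 and 2155 CPM in Input control and 230, 106 and 133 in Input GEMIN5 and fell (−2.48, SE 0.27, and −3.73, SE 0.33). DNA replication genes fell in 14 of 30, with POLD1 at −1.34 and −2.59, although RPA3, the smallest subunit of the single-strand binding protein, rose by 2.10 and 0.80. Immediate early and short-lived mRNAs fell in 7 of 21 and rose in none. The growth regulator MYC fell (−1.34 and −2.62). Genes used to recognise HEK-293 cells fell in 6 of 11 tested, and summed to 2164 to 2516 counts in Input control and 537 to 772 in Input GEMIN5. In bulk RNA a lower level per cell and fewer cells that express a gene cannot be told apart.

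Stress genes were mixed, and stand beside 24.4% of all genes fallen and 4.97% risen. Of 26 integrated stress response genes 3 rose and 4 fell, with medians of 0.01 and −1.27. GDF15, a secreted stress cytokine (chr19:18374731-18389176), had 15, 24, 14 and 16 counts in Input control and 136, 151 and 128 in Input GEMIN5, and rose by 4.05 (SE 0.25) and 2.74 (SE 0.25). DDIT3 (CHOP), a transcription factor of that response, had 172, 99, 177 and 172 counts in Input control and 385, 463 and 511 in Input GEMIN5 and rose by 2.58 (SE 0.27) and 1.24 (SE 0.27). Of 6 metallothionein and zinc response genes tested 3 rose and none fell. These were MT1F by 3.26 and 1.96, MT2A by 2.74 and 1.43, and MT1X by 2.7 and 1.40, all of them small metal-binding proteins. Cytosolic heat shock genes fell in 5 of 16 and rose in 1. HSPA6, a stress-induced Hsp70, had 1, 3, 2 and 1 counts in Input control and 25, 22 and 38 in Input GEMIN5, while HSPA1A fell (−2.29, SE 0.39, and −3.53, SE 0.46). HSPA1A and HSPA1B are near-identical copies, so their counts are uncertain. Of 12 interferon and nucleic acid sensing genes 1 rose and 3 fell. IFI27 was the one that rose, from 20 to 33 counts in Input control to 56 to 70 in Input GEMIN5.

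**Figure D2:**
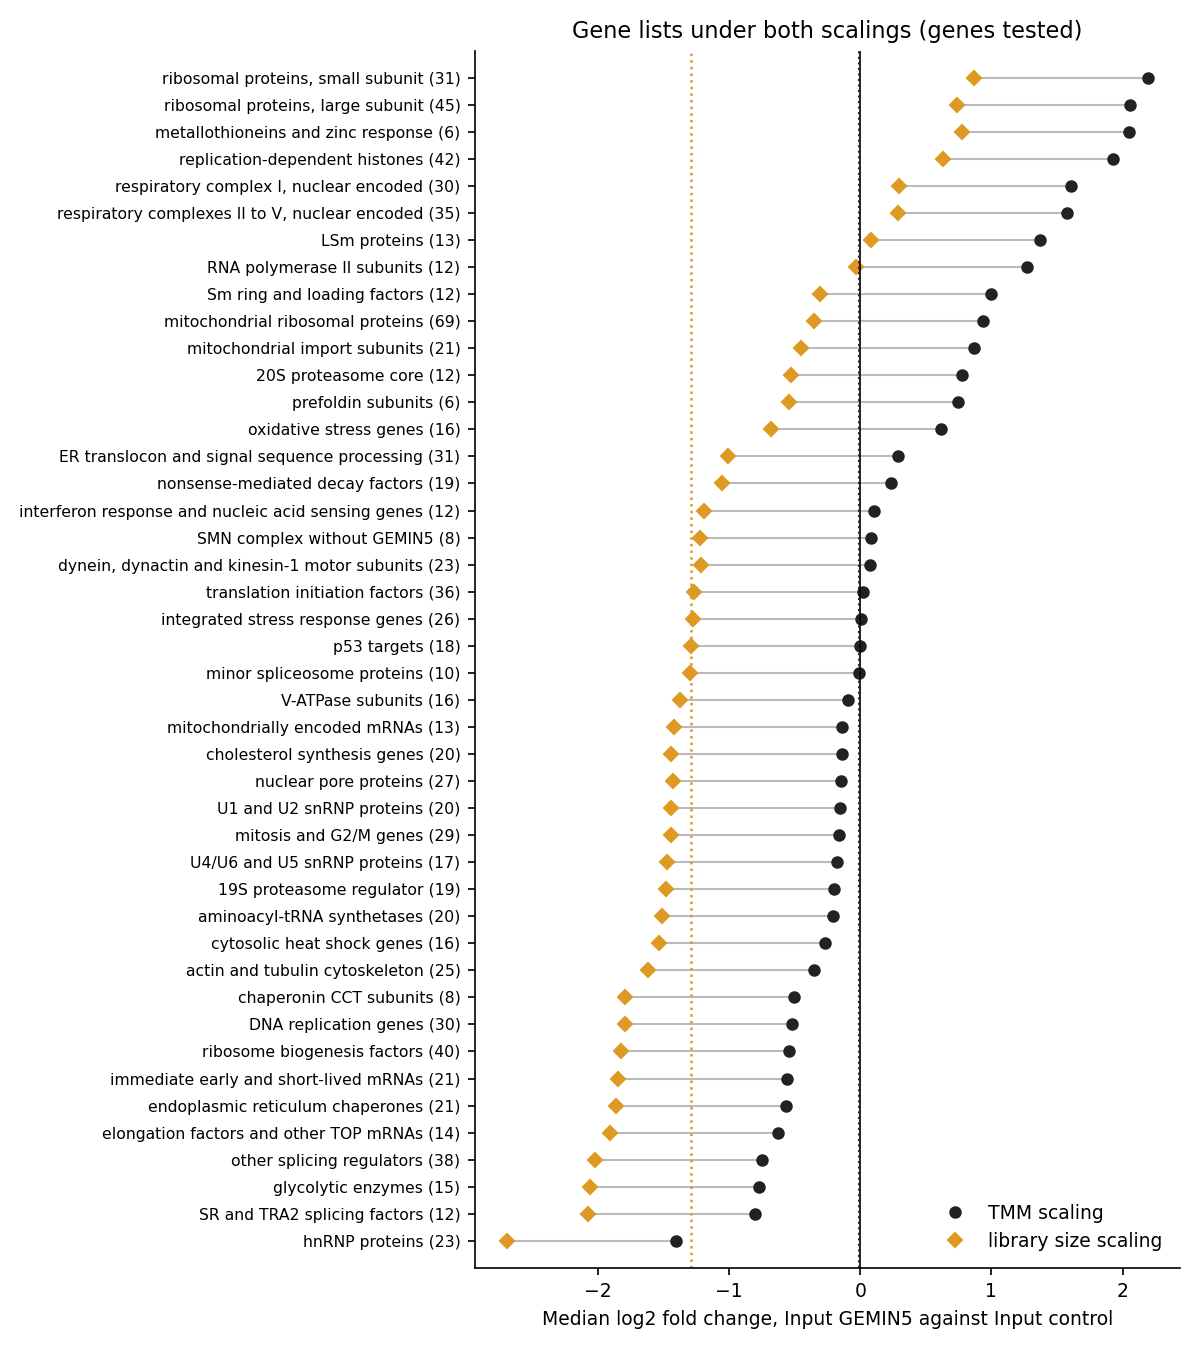
Median log2 fold change of Input GEMIN5 against Input control for 44 gene lists, with the number of genes tested in parentheses. Black circles are TMM scaling and orange diamonds library size scaling, joined by a grey line, and dotted lines mark the median of all 12197 genes under each. Ribosomal proteins, metallothioneins, histones and respiratory subunits lie right of 0 under both scalings, hnRNP proteins lie farthest left, and most other lists change sign with the scaling or lie left of 0 under both.

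Single genes with the largest changes fell into the same kinds and a further one. Besides those above, the short secreted or selenium proteins LCN15, SELENOW and SELENOM rose, by 3.22, 2.93 and 2.89 by TMM and by 1.90, 1.61 and 1.56 by library size. COPS9, the smallest subunit of the COP9 signalosome, rose by 2.93 and 1.63. PDE3A (chr12:20368537-20688583), DAPK1, LAMA2 and TTC16 were also called higher, but no splicing event of PDE3A or LAMA2 held over 3 reads in any Input library, none of DAPK1 over 8 and none of TTC16 over 1. PDE3A had 243, 232, 350 and 324 counts in Input control and 4293, 1621 and 2620 in Input GEMIN5, a difference of 4.25 by TMM. DAPK1 had 195, 237, 268 and 179 counts and 1828, 417 and 772. In both, library 1 of Input GEMIN5 was highest. On the other side DCTN1, a dynactin subunit that links dynein to its cargo, had 392, 582, 487 and 449 counts in Input control and 68, 16 and 24 in Input GEMIN5 and fell (−2.76 and −4.0). CPOX of haem synthesis, TSPYL1, the actin regulators MARCKS and TWF1, and SRRM1 of the splicing machinery fell, with −2.28 to −2.56 by TMM.

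**Figure D3:**
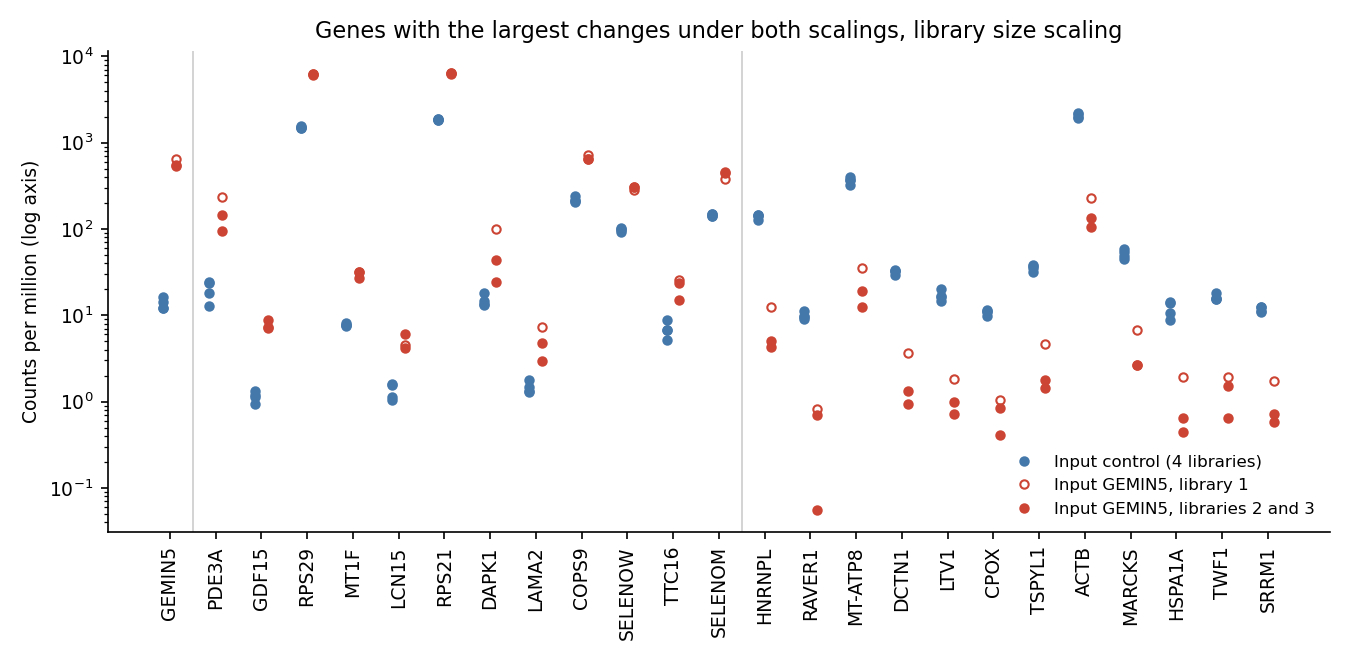
CPM (library size scaling, log axis) of GEMIN5 and of the 12 genes with the largest rise and the 12 with the largest fall among genes called under both scalings. Blue points are 4 Input control libraries, open red points Input GEMIN5 library 1 and filled red points its libraries 2 and 3. The groups do not overlap for any gene shown, which the choice of genes required, and library 1 lies above the other GEMIN5 libraries for all 12 genes that fell.

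Shorter mRNAs were higher in Input GEMIN5, and longer ones were lower by library size. Genes were grouped by the length of their principal mature transcript in GENCODE. By library size the median log2 difference was 0.82 for 74 genes of up to 500 nucleotides, 0.22 for 580 of 501 to 1000, −0.69 for 1000 of 1001 to 1500 and −1.20 for 1413 of 1501 to 2000. It was −1.57 for 1931 genes of 3001 to 4000 nucleotides and −1.21 for 1928 genes over 6000, so the longest class was not the lowest. By TMM the medians were 2.11 in the shortest class, 0.09 at 1501 to 2000 nucleotides, −0.30 at 3001 to 4000 and 0.06 over 6000. Whether a class of longer mRNAs lay below 0 thus depends on the scaling. In all, 55.4% of the shortest class rose, 39.0% of the next, 9.0% of the third and 1.77% to 3.11% of the others, beside 4.97% of all genes tested. Leaving out ribosomal protein genes gave medians of 0.75 and 0.16 by library size for the 2 shortest classes. All 3 GEMIN5 libraries showed this order, and library 1 lay above the others in the classes over 1000 nucleotides.

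As shares of all counts, genes of up to 1000 nucleotides held 30.9 ± 0.569% in Input control and 47.4 ± 1.19% in Input GEMIN5, and genes of 1001 to 2000 held 35.4 ± 0.162% and 28.1 ± 0.210%. With the longest transcript of each gene in place of the principal one, the 1001 to 2000 class was higher in Input GEMIN5 (38.1% and 41.5%), and the shares of genes of up to 1000 nucleotides came to 11.1% and 15.2%. The size of the shift thus depends on the transcript chosen, and in the 1001 to 2000 class its direction does too. By principal transcript, genes over 4000 nucleotides held 10.2 ± 0.167% and 7.64 ± 0.421%. That class held the ribosomal protein gene RPL37, whose principal transcript was set at 7686 nucleotides, with mean CPM of 3338 in Input control and 9052 in Input GEMIN5.

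**Figure D4:**
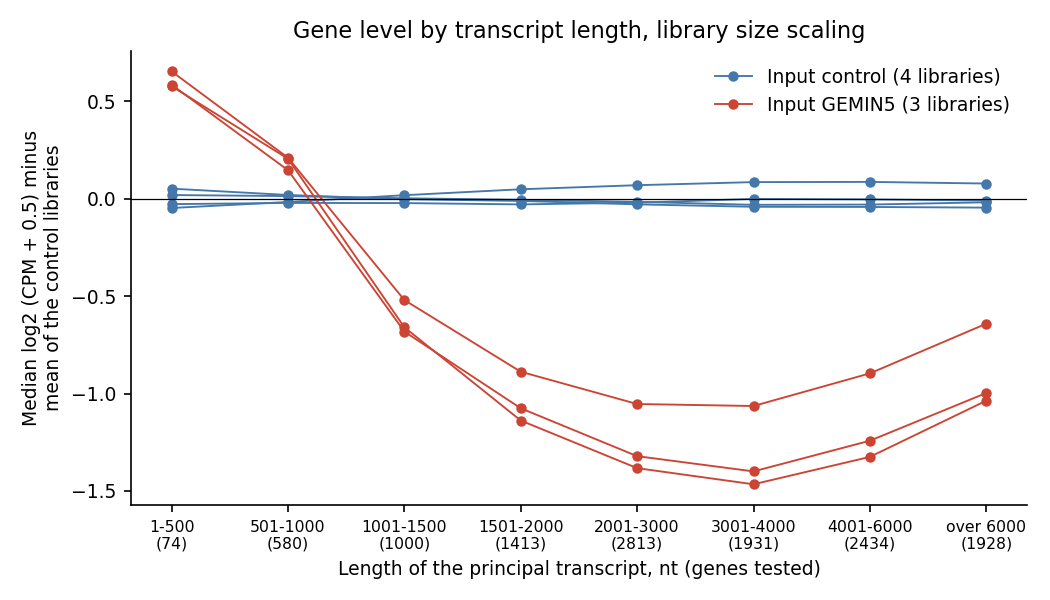
Median over genes of log2(CPM + 0.5) minus the mean of the 4 control libraries, by length of the principal transcript in nucleotides, with the number of genes in parentheses. Each line is 1 Input library, blue for control and red for GEMIN5. Control lines stay near 0, and GEMIN5 lines run from between 0.58 and 0.65 in the shortest class down to between −1.06 and −1.47 at 3001 to 4000 nucleotides and up again in the longest.

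Reads also lay closer to the 3′ ends of genes in Input GEMIN5. Spliced reads of ribosomal protein genes and of GEMIN5 were left out here. Of all others placed on principal transcripts, 25.4 ± 0.301% in Input control and 43.7 ± 0.939% in Input GEMIN5 crossed junctions within 500 nucleotides of the 3′ end. Junctions over 2000 nucleotides away held 19.99 ± 0.217% and 12.9 ± 0.637%. A ratio was taken in 744 of the remaining genes, with at least 4 introns and at least 20 reads over both end junctions together in every Input library. Spliced reads at the junction nearest the 3′ end were divided by those nearest the 5′ end. The median log2 ratio was 1.03, 0.89, 0.97 and 0.96 in Input control and 2.47, 2.40 and 2.33 in Input GEMIN5. The same ratio was 0.91 to 1.72 in Polysome control and 0.93 to 1.40 in Polysome GEMIN5, so the 3 Input GEMIN5 libraries stood above the other 12. The part of these shifts in the differences of single genes was not tested. Each of 20 measures of this kind that were compared (shares of counts, ends, PSI means and TMM factors) had no overlap between the groups and an exact two-sided permutation p of 0.0571, which is the smallest that 4 against 3 libraries allow (Benjamini-Hochberg adjusted 0.0571), so none could pass 0.05.

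Gene counts and spliced reads did not always tell the same story. The gene lengths of the deposited table equal whole gene spans, so reads in introns may have been counted. Of 537 multi-exon genes that rose, 60 (11.2%) had no splicing event with 10 or more spliced reads in any Input library. This was so for 28.8% of all tested genes of that kind. Summed over a gene, spliced reads could be more, as in DAPK1 with 8.48 to 28.2 in Input control. Of these 60 genes 38 (63.3%) held a processed pseudogene, an mRNA copy inserted in the genome, within their span, and 10 (16.7%) a ribosomal protein one. The shares were 21.3% and 3.16% of all tested genes with so few spliced reads at every event. Their median span was 176638 nucleotides against 62565. OOEP, an oocyte gene whose span holds RPL39P3 and RPS6P8, had 3553, 4544, 3724 and 3166 counts in Input control and 11837, 13336 and 13354 in Input GEMIN5. No event of OOEP held more than 1 spliced read in any Input library. RASAL2, PLEKHA7, AMBRA1 and SLC35F1 had the same form, with at most 7 spliced reads at any event.

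Where enough reads were spliced, both readouts mostly moved the same way. Of 459 risen genes with at least 50 spliced reads in all, spliced reads relative to library size were higher in every Input GEMIN5 library than in any control for 393 (85.6%) and lower for 18, beside 505 (5.83%) and 7101 (82.0%) of 8660 tested genes. Of 2515 fallen genes they were lower for 2497. TXNRD1 and RBFOX2, both picked after their values were seen, went apart. TXNRD1, the thioredoxin reductase of the antioxidant system, had 4957, 6269, 5854 and 4865 counts in Input control and 14808, 9779 and 12083 in Input GEMIN5. Its spliced reads were 186, 248, 172 and 187 in Input control and 25.4, 7.09 and 7.09 in Input GEMIN5, and its span holds the pseudogene RPL18AP3. RBFOX2 had 1914, 2673, 2105 and 1838 counts in Input control and 6032, 5676 and 6089 in Input GEMIN5, but 81.5, 123, 111 and 88.5 spliced reads against 48.3, 29.4 and 35.5. NDUFA9P1 lies in its span. For both genes the counts rose while the spliced reads lay lower in each GEMIN5 library.

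Splicing was compared next. Of 11930 events 512 passed (4.29%, limma on log2 odds, adjusted p under 0.05), 264 with higher PSI in Input GEMIN5 and 248 with lower (2.21% and 2.08%). Exons were mostly skipped more and introns mostly kept more. Of 6030 exons 199 were lower (3.3%) and 64 higher (1.06%, 4.36% in all). Of 1463 introns 129 were higher (8.82%) and 11 lower (0.752%, 9.57% in all). Alternative 3′ sites gave 41 higher and 20 lower of 2271 (1.81% and 0.881%, 2.69% in all), and alternative 5′ sites 30 and 18 of 2166 (1.39% and 0.831%, 2.22% in all). Each such site has its own PSI, so higher does not mean a longer form. Sites of the same set share reads, as at USP39 sites with PSI differences of 11.3 and −11.3, both called. A rule of size, a difference of at least 15 PSI points with a gap of at least 5 between the groups, took in 396 events (3.32%), 159 higher and 237 lower (1.33% and 1.99%), and 259 events met both. By that rule 43 exons were higher and 197 lower (0.713% and 3.27%, 3.98% in all), and 88 introns higher and 10 lower (6.02% and 0.684%, 6.7% in all). It took in 11 higher and 12 lower alternative 3′ sites (0.484% and 0.528%, 1.01% in all), and 17 and 18 alternative 5′ sites (0.785% and 0.831%, 1.62% in all). Without Input GEMIN5 1 the rule took in 599 events, and 236 with at least 20 reads per event. Leaving out any 1 of the 7 libraries lowered the calls to between 167 (without Input control 2) and 282 (without Input GEMIN5 1), and the difference kept its sign in every one of the 472 to 512 called events that could still be tested. With replicate numbers as a block only 36 events were called.

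Some of the exons and junctions with the largest differences, and an exon of the splicing factor HNRNPH3 with a smaller one, are shown before their values, all from coding sequence and from GENCODE transcripts of GRCh38. Skipped exons are in capitals between 15 bases of the exon on either side. Introns are shown by the spliced junction that removes them, with the downstream exon in capitals.
ASPSCR1 exon, chr17:81995992-81996065, plus strand: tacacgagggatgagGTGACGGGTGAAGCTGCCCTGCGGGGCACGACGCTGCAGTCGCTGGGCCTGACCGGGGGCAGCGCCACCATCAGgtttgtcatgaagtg
CCDC43 exon, chr17:44682003-44682138, minus strand: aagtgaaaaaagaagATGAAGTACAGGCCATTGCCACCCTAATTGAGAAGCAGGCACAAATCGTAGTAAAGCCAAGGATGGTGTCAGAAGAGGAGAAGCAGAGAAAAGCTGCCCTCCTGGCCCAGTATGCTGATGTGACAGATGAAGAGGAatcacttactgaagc
IARS exon, chr9:92287791-92287910, minus strand: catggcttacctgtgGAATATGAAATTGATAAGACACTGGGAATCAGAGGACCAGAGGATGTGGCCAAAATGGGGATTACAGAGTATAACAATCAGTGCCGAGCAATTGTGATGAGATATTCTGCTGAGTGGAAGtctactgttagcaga
HNRNPH3 exon, chr10:68337858-68337996, plus strand: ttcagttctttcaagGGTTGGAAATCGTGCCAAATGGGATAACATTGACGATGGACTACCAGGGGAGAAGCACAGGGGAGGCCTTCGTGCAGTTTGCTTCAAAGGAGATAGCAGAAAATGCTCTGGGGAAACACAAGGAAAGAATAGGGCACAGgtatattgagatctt
ZNF330 junction across the intron chr4:141222492-141224486, plus strand: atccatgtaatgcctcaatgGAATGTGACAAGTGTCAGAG
CTTN junction across the intron chr11:70407592-70409830, plus strand: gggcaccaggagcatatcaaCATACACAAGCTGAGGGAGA

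The exons with lower PSI were, like most exons tested, coding and nearly always kept in control cells. Their median PSI was 96.5 in Input control and 73.2 in Input GEMIN5, beside 94.6 and 91.2 over all exons tested, and 74.4% were coding in a protein-coding transcript, beside 68.2%. ASPSCR1, a tether of the glucose transporter GLUT4, had a 74-nucleotide exon at a PSI of 100 in all 4 controls and of 16.2, 65.3 and 44.4 in Input GEMIN5, from 34 to 40 reads with the exon and none without in control. In Input GEMIN5 only 1.95, 9.79 and 7.98 reads included this exon and 10.05, 5.21 and 10.02 skipped it. Its 427-nucleotide neighbour went from 100 in all controls to 35.3, 69.0 and 26.7, and both share the outer exons, so some reads without the exon count for both. Control and GEMIN5 libraries did not overlap. The 74-nucleotide exon is not a multiple of 3. With only that exon left out, the reading frame of 647 codons ends after 242 codons, 98 codons past the new joint. Reads that join the outer exons leave out its neighbour as well, and the frame of that form was not computed. CCDC43 had its 136-nucleotide exon at 89.1, 88.7, 92.7 and 93.1 in Input control and at 35.5, 52 and 20 in Input GEMIN5. With only that exon left out, its frame of 227 codons ends after 113. The reads that skip it join outer exons shared with an 88-nucleotide exon also called lower. Such reads leave out both exons, and the frame of that form was not computed.

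Metabolic enzymes were among the genes with skipped exons. IARS (also IARS1), the isoleucyl-tRNA synthetase, had lower PSI at all 6 exons tested, with a median difference of −43.6 points. Its 120-nucleotide exon was at 88.7, 76.2, 76.5 and 76.5 in Input control and at 28.6, 45.9 and 16.9 in Input GEMIN5. In Input GEMIN5 only 3.15, 5.05 and 1.69 reads included this exon and 7.85, 5.95 and 8.31 skipped it, close to the minimum of 10 reads. This exon is in frame, and without it alone 1222 of 1262 codons remain. The reads that skip it join outer exons shared with a 74-nucleotide exon also called lower. Such reads leave out both exons, and the frame of that form was not computed. SDHA, the catalytic subunit of succinate dehydrogenase, was lower at 5 of 6 exons. Its 144-nucleotide exon, also in frame, was at 98.7, 97.0, 96.2 and 95.4 in Input control and at 80.7, 44.0 and 17.5 in Input GEMIN5, a spread so wide that the call held in only 3 of 7 tests with 1 library left out. Long runs of exons in a single gene also moved together. FANCI, of the Fanconi anaemia DNA repair pathway, was lower at 20 of 31 exons tested, with a median of −32.0 points over the 20. An 86-nucleotide exon of FANCI was at 59.3, 55.4, 51.0 and 59.7 in Input control and at 9.72, 5.82 and 11.9 in Input GEMIN5. Exons of such a run share the reads of a long skip, so they are not separate observations. MRPL2 was lower at 4 of 4 exons and RBM42 at 4 of 5.

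Among the largest losses, exons of CIRBP and TPGS2 held the most reads in Input GEMIN5. CIRBP, a cold-inducible RNA-binding protein, had a 97-nucleotide exon at 73.0, 76.1, 69.3 and 72.9 in Input control and at 18.2, 16.2 and 24.6 in Input GEMIN5, with 64.8 to 85.1 reads that skip it in the GEMIN5 libraries. TPGS2, a subunit of the tubulin polyglutamylase, had a 242-nucleotide exon at 81.0, 77.6, 75.1 and 76.5 and at 29.9, 21.1 and 22.1. Both groups were tight, and both calls held with each library left out. An alternative 3′ site of NDUFV3, a complex I subunit, went from 91.5, 94.2, 88.9 and 95 to 38.9, 40.7 and 28.6.

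The exons with higher PSI were of another kind. Their median PSI was 10.8 in Input control and 41.3 in Input GEMIN5, and 20.3% were coding in a protein-coding transcript. The boundaries of 25 of the 64 (39.1%) are not annotated in GENCODE, beside 18.3% of exons tested. GENCODE lists 14 of the 64 (21.9%) solely in transcripts labelled as targets of nonsense-mediated decay or other noncoding ones, beside 3.71% of exons tested. Nonsense-mediated decay removes mRNAs whose stop codon lies too early. NELFA, a subunit of the negative elongation factor, had its 202-nucleotide decay exon at 16.8, 16.9, 12.7 and 15.0 in Input control and at 100, 94.1 and 65.4 in Input GEMIN5. No GEMIN5 library was near a control. Exons of VEZT, an adherens junction protein, and SPTLC1, the first enzyme of sphingolipid synthesis, in noncoding transcripts went from means of 32.3 and 36.1 to 89.8 and 88.2, but held their calls in only 3 and 2 of 7 tests with a library left out. Smaller gains were called at decay exons of SRSF2, an SR protein that regulates its own mRNA through this exon (0.89, 0.90, 0.92 and 1.26 to 3.10, 7.20 and 4.86), and of U2AF2 and CCDC84, a minor spliceosome factor. Those of SRSF2 and CCDC84 passed in no test with a library left out, and that of U2AF2 in 1 of 6.

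Introns with higher PSI were long ones inside the gene. Their median length was 2258 nucleotides against 686 for introns tested, 7.5% were the first intron and 11.7% the last, against 21.8% and 21.2%. ZNF330, a nucleolar zinc finger gene, had its 1995-nucleotide intron at 11.2, 9.73, 12.6 and 6.91 in Input control and at 80.7, 87.9 and 72.2 in Input GEMIN5. CTTN, the actin regulator cortactin, had a 2239-nucleotide intron at 26.3, 28.0, 31.3 and 17.7 and at 90.9, 95 and 100. Introns of CHEK2, DNAJA3, SNX24 and RNF41 moved in the same way, by 52.3 to 60.7 points, with no overlap of the groups in any of them.

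A retained intron should give similar read numbers at both of its ends. The deposited table holds a test of that balance, and it was below 0.05 in all 3 GEMIN5 libraries for each of the 6 introns just named, and in at least 2 control libraries for each of them. Of the 129 introns called higher 88 were out of balance in at least 1 library, beside 656 of all 1463 introns tested. Among the 807 introns in balance in all 7 libraries, 41 were called higher and 5 lower, beside 8.82% and 0.752% of all 1463 introns tested. In balance means only that the test was not below 0.05, which few reads can hardly reach. Tested introns held a median of 3.61 intron reads in Input control and 3.59 in Input GEMIN5. These 41 were thus not shown to be whole retained introns. For introns out of balance the PSI therefore need not measure a whole retained intron.

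The reads behind the PSI changes were compared relative to library size, where the median gene lay at −1.29. For exons called lower, reads that include the exon were lower in Input GEMIN5 by a median of 2.31 on the log2 scale and reads that skip it were higher by 0.50. For exons called higher, including reads were 0.60 higher and skipping reads 2.18 lower, and for introns called higher, intron reads were 0.72 higher and spliced reads 2.01 lower. Among all exons tested the medians were −0.99 and −0.24. The size of each side's difference depends on the scaling, and TMM values of these reads were not computed. PSI values were less precise in Input GEMIN5, where the median tested event held 36 to 40 reads in each library, than in Input control with 54 to 76.

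Called events also lay in splicing factor genes. HNRNPH3, an hnRNP of the H family, had its 139-nucleotide exon at 98.3, 97.9, 97.8 and 97.6 in Input control and at 83.6, 79.5 and 76.7 in Input GEMIN5, and without it the frame of 346 codons ends after 71. SRSF10, a splicing repressor of the SR family, had a 3635-nucleotide intron at 5.23, 2.94, 6.85 and 8.01 and at 25.4, 28.3 and 26.5. PRPF31 of the U4/U6 particle had an intron at 1.54 to 2.22 and at 12.9 to 16.4, and HNRNPH1 one at 0 to 0.38 and at 4.76 to 11.1. TIA1, which binds U-rich RNA near 5′ splice sites, had a 7559-nucleotide intron at 22.6, 33.3, 16.7 and 42.9 and at 75.0, 84.6 and 55.6. The HNRNPH3, PRPF31 and HNRNPH1 intron calls held with each library left out, that of SRSF10 in 5 of 7 tests and that of TIA1 in 2 of 7. The intron calls of HNRNPH1, HNRNPL and HNRNPK and the call at a splice site of SF3A2 rested on at most 1.68 intron or inclusion reads in any library. The balance test was below 0.05 in all 7 libraries for the SRSF10 intron and in all 3 GEMIN5 libraries for the TIA1 intron.

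Polysome libraries of the same cells did not show these differences at like size. Of the 259 events that met both rules in Input, 249 could be read in all 8 polysome libraries. Their median absolute difference was 28.1 points in Input and 2.68 points in polysomes, beside 2.815 and 1.2 points over the 11115 tested events. The difference had the same sign in 160 of the 249, beside 5649 of 11115 tested events. In 9 of the 249 the polysome groups did not overlap in that direction, beside 186 of 11115 tested events (1.67%). CIRBP's exon averaged 85.9 in Polysome control and 83.1 in Polysome GEMIN5, and the NELFA exon 22.0 and 24.9. Events chosen for a large difference in Input will on average be smaller elsewhere, and the interaction between fractions was not tested.

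**Figure D5:**
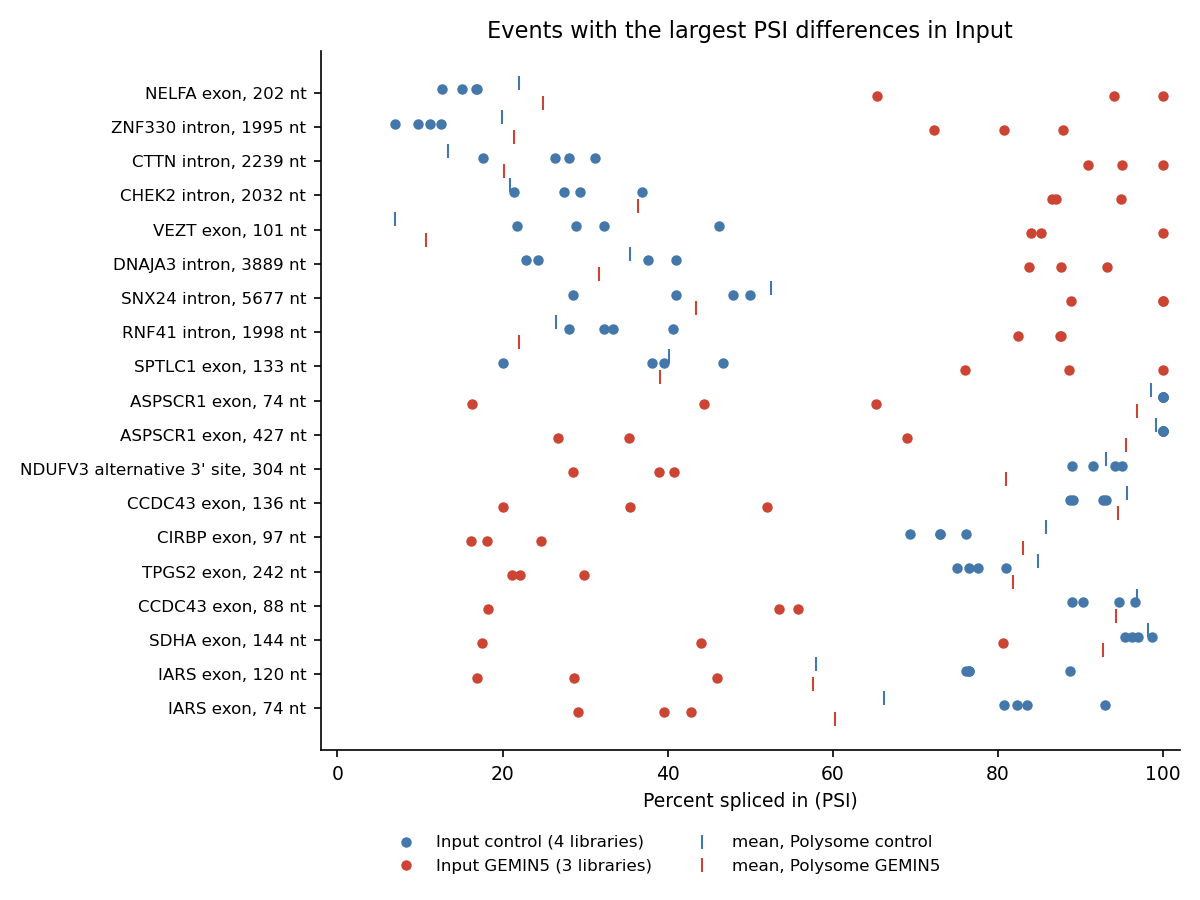
PSI of called events with the largest gains and losses that also met the rule of size. Blue points are 4 Input control and red points 3 Input GEMIN5 libraries, and blue and red ticks the means of Polysome control and Polysome GEMIN5. Input GEMIN5 points lie far from the control points in every row, which the choice of events required, while both polysome ticks lie at most 15.5 points apart.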

How the data were processed

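Cytoplasmic RNA was measured in 4 Input control and 3 Input GEMIN5 libraries, grouped by their titles. The deposited gene table holds read counts per gene, which the authors deposited without normalization. The submitters' processing notes name STAR 2.7.10a, featureCounts and GRCh38. Whether counting used strand and introns is not given in the sources used here. Splicing values were deposited as PSI in percent, with a text field of corrected inclusion and exclusion reads, per the file headers, and PSI recomputed from those reads fell within 0.5 point for 100% of 2330118 values. The members and gene lists were chosen with earlier results of these data known.

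Counts were tested with edgeR 4.0.16 (quasi-likelihood test, R 4.3.3, all 15 libraries in 4 groups, genes kept by filterByExpr) with TMM factors and again with factors of 1. Events with at least 10 corrected reads in every Input library, whose PSI reached at least 5 in some library and 95 or less in some library, were tested with limma 3.58.1 (trend, robust) on the log2 odds with 0.5 read added. P-values were adjusted by Benjamini-Hochberg over all genes or events. Library measures were compared by exact permutation tests (scipy 1.17.1). The tests were also run on simulated data with far fewer changed genes than here and no comparable shift in composition. Those runs cannot show how the tests behave on the present data. Transcripts came from GENCODE release 29, which matched 21315 of 21519 genes. Named were GEMIN5, the 12 largest changes each way called under both scalings (mean CPM at least 5, no overlap of groups, no clone-based symbol), up to 3 members of each of 44 lists by size, the 10 largest called events each way that met the rule of size, and called events in splicing genes; some of these are not reported here. DESeq2 1.42.0, other scalings and filters, single libraries left out and a replicate block were alternatives. Deviations of same-numbered libraries correlated weakly, and whether the numbers pair the libraries was not settled.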

Additional observations from a re-analysis of the deposited data

Results flagged for a closer look

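In 14 of 147 groups of 4 Input control libraries, 1 library stood far from the other 3, where chance gives about 1 in 20. Among genes it was the lowest for HNRNPL (126 CPM, next 143), ATP5F1E (886 CPM), H4C2 (0.377 CPM), TMA7 (610 CPM, rounded from 609.5), DDIT3 (5.51 CPM, next 11.9) and FTL (1155 CPM). It was the highest for NDUFA3 (316 CPM, next 281) and CCT6A (495 CPM). Among events it was the highest for the 120-nucleotide IARS exon (PSI 88.7, next 76.5), the SRSF2 decay exon (1.26), the SF3A2 splice site (0.71), the U2AF2 decay exon (0.3) and the HNRNPK intron (0.17), the last 3 with the other libraries at 0. The TMM factor of 1 control library was 1.03, above 0.979 in the next.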

How the results depend on the processing

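All 95 named genes kept their direction with DESeq2, RLE scaling, TMM factors without ribosomal protein genes, no count filter, only the 7 Input libraries and each library left out, and all kept their calls there. They were chosen mainly for large called changes in these same data, so this outcome was largely set by the choice. Library size scaling gave 9875 called genes, 606 higher and 9269 lower, and turned MT-ND2 (−0.35), PSMB6 (−0.29), PSMB2 (−0.46) and GEMIN2 (−0.69). Library size without ribosomal protein genes gave 1525 higher and 6353 lower and turned the GEMIN2 log2 fold change (−0.0498). Without Input GEMIN5 2 and with genes chosen anew, which was added after seeing the data, 2108 genes were higher. Event counts moved most. Limma on the deposited PSI called 272 events (exons 110 lower and 36 higher, introns 75 higher and 7 lower), no filter on PSI range 2967 (645, 327, 698 and 385) and a prior of 1 read 1413 (596, 145, 273 and 26). With 1 library left out 167 to 282 events were called (exons 70 to 119 lower and 21 to 40 higher, introns 50 to 78 higher and 3 to 8 lower), and the rule of size took in 445 to 599. That rule took in 179 events at 25 points and 236 at 20 reads. Balanced introns alone, also added later, gave 41 higher and 5 lower. Deviations of same-numbered libraries correlated by 0.0918, 0.0590 and −0.00541 for numbers 1 to 3. These values are too weak and too few to decide whether the numbers pair the libraries. With replicate numbers as a block, limma called 36 events (19 exons lower and 0 higher, 11 introns higher and 0 lower), with 2321 events under 0.05 before adjustment. With the same block edgeR called 6050 genes. Control libraries 1 and 2 correlated best with their own number and control 3 with GEMIN5 library 2 (0.0650). With the longest transcript, GEMIN5 minus control shares of the 4 length classes were 4.19, 3.35 (reversed), −3.47 and −4.10 points. The causes were not tested. Few reads per event and 3 GEMIN5 libraries limit precision.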
